A study of Homo sapiens with 6 samples.

Results

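The transcripts described here are those of ATF4, of 7 other basic leucine zipper (bZIP) transcription factors with which it pairs or competes, and of 2 feedback genes, TRIB3 and NUPR1. The members were taken as a named list, which was drawn up with earlier results of these data known, and each symbol was matched to its Ensembl identifier: all 10 had a row among the 57820 genes of the count table. Every member also passed the filter on low counts, after which 17225 genes were tested. The lowest member, CEBPA, still had 24 to 33 counts in each library, so that no member entered the test through a single group.

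The cells were HEK293, an established line from human embryonic kidney. One group of 3 libraries received the vehicle, dimethyl sulfoxide (DMSO), and is called control below. The other group of 3 received 100 µM minocycline, a tetracycline antibiotic, and both groups were harvested after 12 h at rest, with no heat shock. The series' design text calls the libraries biological replicates, and each replicate number also stands as a batch in the labels, with 1 library of each group per batch. Gene counts were measured in total RNA, and the comparison asks how these transcripts differed after the drug.

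Library totals lay between 17303180 and 17835756 counts. All 6 markers set for HEK293 (PAX2, NEFM, INA, KRT18, VIM and LIN28B) had at least 48 counts in every library. Of the markers of other cell types, PTPRC, CD3E, HBB, ALB, APOA1 and DCN had at most 13 counts in any library, and COL1A1, a fibroblast collagen gene, had 927 to 1428. The libraries did not separate by treatment along their main axis of variation. Principal component 1, with 51.0% of the variance, placed control replicate 1 (-36.8) beside minocycline replicate 2 (-33.8), with control replicates 2 and 3 at the other end (32.8 and 49.8). Minocycline replicates 1 and 3 lay between them (-15.3 and 3.28). The share of counts on 82 ribosomal protein genes was 6.89% in control replicate 1 and 6.81% in minocycline replicate 2, against 10.3% and 11.4% in the other controls, and its part in the results was not tested. Values without control replicate 1 therefore stand beside the results it touches. In that setting 9.52% of all genes passed as higher and 8.34% as lower, and calls made there are to be read against these shares.

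ATF4 is the main effector of the integrated stress response. When the initiation factor eIF2 is phosphorylated, most translation slows while the ATF4 mRNA, through short reading frames in its leader, is translated more. The protein binds DNA as a dimer with C/EBP family members, at a composite element that joins a C/EBP half-site to an ATF half-site. Its targets include genes for amino acid supply and also other transcription factors and inhibitors that limit the response.

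The composite element is shown here because it is a sequence that several members carry near their starts. Its core, TGATGCAA, was searched on both strands from 500 bases before to 500 bases after the start of the canonical transcript of each gene (GENCODE annotation on GRCh37, the coordinates of hg19). It was present near 6 of the 10 members and near 1.21% of the 13608 protein-coding genes tested (165 genes). Each site is printed on the strand of its gene with 10 bases on either side, and capitals mark the core, which reads TTGCATCA where it lies on the opposite strand.
JDP2 at chr14:75894709-75894716, plus strand, 16 bases before the start: tagccggggcTGATGCAAcccgtcccgc
CEBPG at chr19:33864977-33864984, plus strand, 362 bases after the start, in an intron: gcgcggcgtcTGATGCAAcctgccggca
TRIB3 at chr20:361536-361543, plus strand, 132 bases after the start, in an untranslated exon: tagctccggtTTGCATCAcccggaccgg
NUPR1 at chr16:28550379-28550386, minus strand, beginning 91 bases before the start: aggggccagaTTGCATCAgacagggcct
ATF3, proximal site at chr1:212782082-212782089, plus strand, 21 bases before the start: ataaaaggggTGATGCAAcgctctccaa
ATF3, distal site at chr1:212781900-212781907, plus strand, 203 bases before the start: ctccccgaacTTGCATCAccagtgcccc
DDIT3 at chr12:57914596-57914603, minus strand, beginning 306 bases before the start: ttgccaaacaTTGCATCAtccccgcccc

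TRIB3 held the same 28 bases at 2 further places, starting 165 and 198 bases after its start, so that its 3 copies were evenly spaced. ATF4, ATF5, CEBPB and CEBPA had no match to TGATGCAA in this window, nor to the looser form TGATGNAA, which contains it and which 5.40% of the genes held. Among the other genes listed as ATF4 targets, 17 of 41 with a window held TGATGCAA. So did 3 of 18 genes of eIF2 signalling (16.7%) and 0 of 41 other bZIP genes. The members and the targets were chosen as known genes of the ATF4 network, so their shares are no independent evidence. A match is a description of the letters, and binding was not measured.

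**Figure D1:**
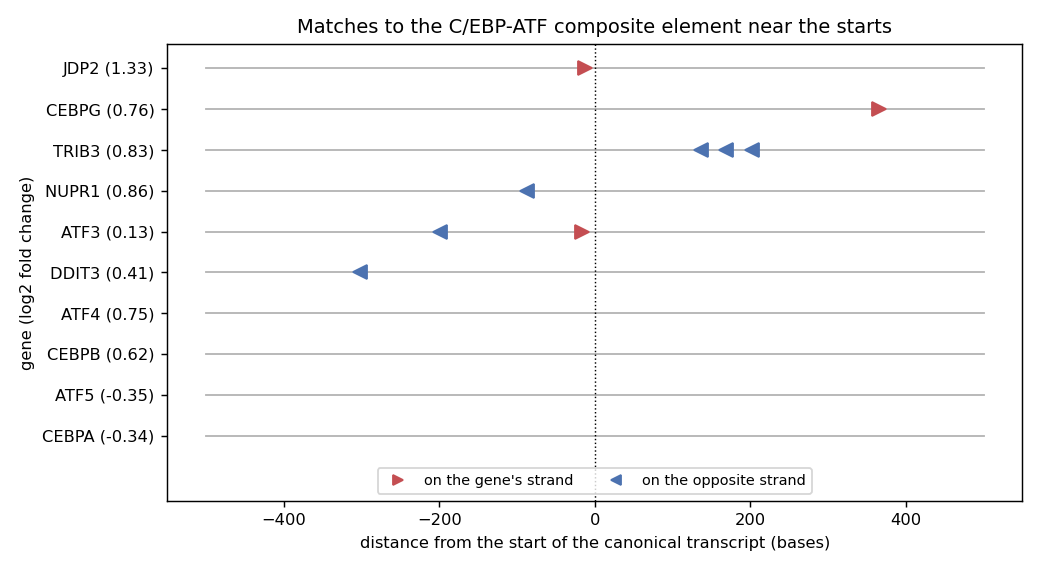
Position of each match to the composite element (triangles, pointing along the strand that carries it) relative to the start of the canonical transcript, in bases, for the 10 members, with the log2 fold change of each gene in brackets. JDP2, CEBPG, TRIB3, NUPR1, ATF3 and DDIT3 hold 1 to 3 matches, and ATF4, CEBPB, ATF5 and CEBPA hold none.

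ATF4 transcripts, already the most abundant of the group, were higher with minocycline in every library, and those of its closest relative ATF5 were lower on average. ATF4 (ENSG00000128272.10, chromosome 22, 39915700 to 39918688, plus strand) had 528, 751 and 795 CPM (normalised counts scaled by library size) in control replicates 1, 2 and 3, and 1204, 987 and 1298 CPM in the corresponding minocycline libraries. The groups did not overlap, and control replicate 1 was the lowest library. The means were 691 ± 143 and 1163 ± 159 CPM (SD, n = 3 per group), a log2 fold change of 0.75 with a 95% interval of 0.32 to 1.18, which missed the threshold of an adjusted p under 0.05 (adjusted p = 0.810, edgeR's quasi-likelihood test). Without control replicate 1 the log2 fold change was 0.59 (adjusted p = 0.0120).

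ATF5 (ENSG00000169136.4, chromosome 19, 50431959 to 50437192, plus strand) encodes a factor with a zipper much like that of ATF4, which is also controlled by upstream reading frames and is tied to stress in mitochondria. Its levels were 48.4, 65.3 and 64.3 CPM in the controls and 46.3, 42.3 and 50.9 CPM with minocycline. Control replicate 1 lay within the range of the treated libraries, so the groups overlapped. The log2 fold change was -0.35 with a 95% interval of -0.70 to -0.0041 (adjusted p = 0.820, edgeR), and -0.48 without control replicate 1 (adjusted p = 0.0168). Exons of ATF5 share 19.5% of their length with NUP62 on the opposite strand, and whether the counting used strand is not stated. NUP62 had a log2 fold change of -0.11 ± 0.13 (SE).

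**Figure D2:**
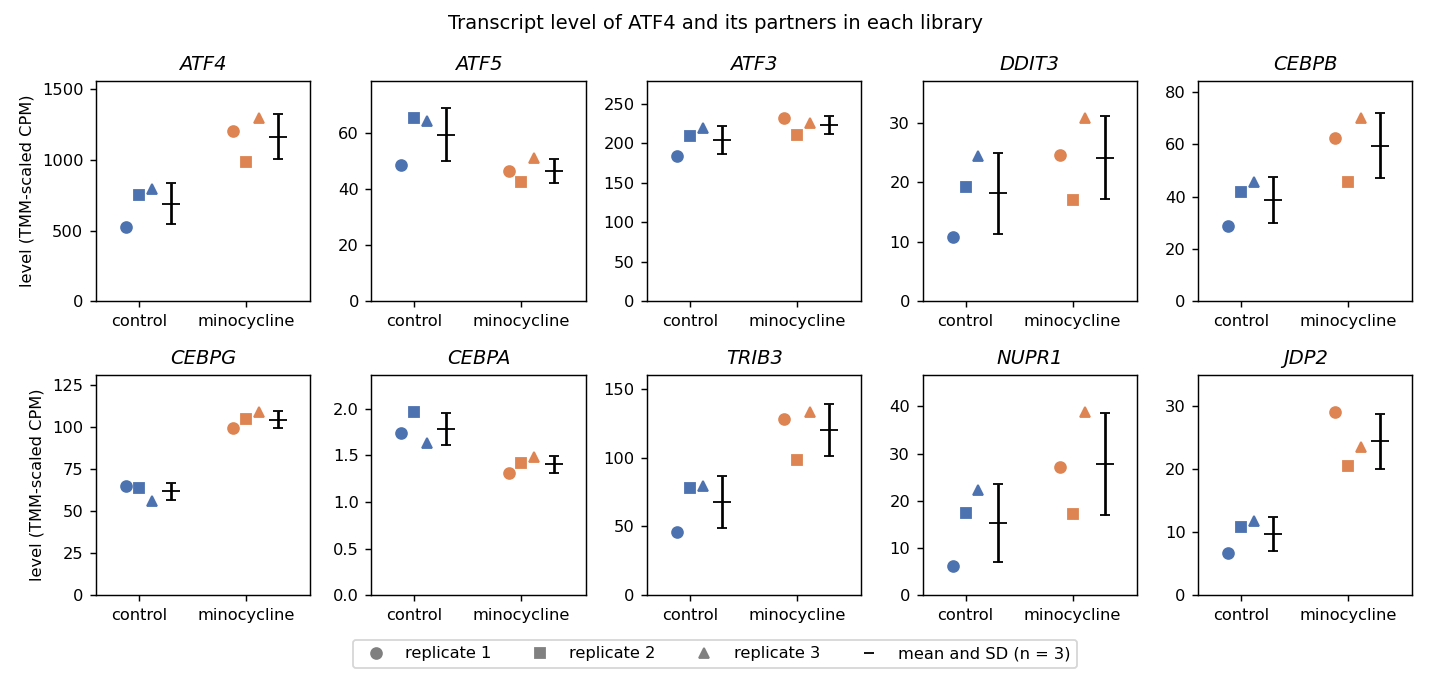
Level of each of the 10 members in TMM-scaled CPM (vertical axes, each from 0) in the 3 control (blue) and 3 minocycline (orange) libraries, with the replicate number as the symbol and the mean ± SD in black. The groups do not overlap for ATF4, CEBPB, CEBPG, TRIB3 and JDP2, which are higher with minocycline, nor for CEBPA, which is lower.

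The C/EBP factors are the dimer partners of ATF4 on the composite element. CEBPG, which lacks a strong activation domain of its own and forms heterodimers with ATF4, showed the tightest difference of all members. CEBPG (ENSG00000153879.4, chromosome 19, 33864591 to 33873592, plus strand) had 65.2, 63.8 and 56.2 CPM in the controls and 99.5, 105 and 109 CPM with minocycline. The gap between the groups was wider than the span of either one. The log2 fold change was 0.76 ± 0.12 (SE; 95% interval 0.48 to 1.04). It ranked 20 of 17225 genes by p and missed the threshold after adjustment (adjusted p = 0.115, edgeR). It was nearly the same without control replicate 1, at 0.80 (adjusted p = 0.00125).

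CEBPB (ENSG00000172216.4, chromosome 20, 48807367 to 48809205, plus strand) encodes an activator of stress and inflammatory genes. Its levels were 28.7, 41.7 and 45.6 CPM in the controls and 62.4, 45.7 and 70.1 CPM with minocycline. Control replicate 3 and minocycline replicate 2 differed by almost nothing, so the separation of the groups rests on a small gap. The log2 fold change was 0.62 with a 95% interval of 0.14 to 1.10 (adjusted p = 0.820), and 0.44 without control replicate 1 (adjusted p = 0.0618, edgeR).

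CEBPA (ENSG00000245848.2, chromosome 19, 33790840 to 33793440, minus strand), a factor of myeloid, liver and fat differentiation, was close to the limit of the measurement. It had 1.74, 1.97 and 1.63 CPM in the controls and 1.31, 1.41 and 1.49 CPM with minocycline. All control libraries lay above all treated ones, yet these values stand for 27 to 33 and 24 to 26 counts, and the log2 fold change was -0.34 with a 95% interval of -0.94 to 0.26 (adjusted p = 0.825, edgeR). A pair of long noncoding RNA genes annotated on the opposite strand of CEBPA had 0 counts in all 6 libraries.

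DDIT3, ATF3 and JDP2 encode factors that act with or against ATF4 further downstream, and they differed widely from each other. DDIT3 (ENSG00000175197.6, chromosome 12, 57910371 to 57915520, minus strand) encodes CHOP, a C/EBP-like protein that is associated with cell death under prolonged stress. Its levels were 10.9, 19.2 and 24.4 CPM in the controls and 24.6, 16.96 and 30.8 CPM with minocycline. Minocycline replicate 2 lay below 2 of the controls, and the groups overlapped. The log2 fold change was 0.41 with a 95% interval of -0.27 to 1.09 (adjusted p = 0.820), and 0.15 without control replicate 1 (adjusted p = 0.651, edgeR).

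The exons of DDIT3 overlap those of its neighbours. MARS1, the methionyl-tRNA synthetase gene on the opposite strand, shares 27.2% of the exon length of DDIT3, and MBD6 shares 4.4%. MARS1 had 176, 148 and 161 CPM in the controls and 316, 299 and 296 CPM with minocycline, a log2 fold change of 0.91 ± 0.12 (SE; adjusted p = 0.0523, edgeR). MARS1 was higher in every treated library than in any control. The share of DDIT3 counts that comes from MARS1 was not tested.

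ATF3 (ENSG00000162772.12, chromosome 1, 212738676 to 212794119, plus strand) encodes a stress-induced factor that represses as a homodimer. It was abundant, at 184, 210 and 219 CPM in the controls and 232, 210 and 226 CPM with minocycline. The groups overlapped and the log2 fold change was 0.13 with a 95% interval of -0.15 to 0.41 (adjusted p = 0.840, edgeR). Without control replicate 1, its lowest library, the log2 fold change was 0.06 (adjusted p = 0.767, edgeR). With 3386 to 4252 counts per library, counting noise was small beside this interval.

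JDP2 showed the largest fold change of the members. JDP2 (ENSG00000140044.8, chromosome 14, 75894419 to 75940814, plus strand) encodes a bZIP repressor related to ATF3 that dimerises with Jun proteins and with CHOP. It had 6.68, 10.9 and 11.7 CPM in the controls and 29.2, 20.5 and 23.6 CPM with minocycline. Even the lowest treated library stood well above the highest control. The fitted level was 2.51-fold higher, a log2 fold change of 1.33 ± 0.23 (SE; 95% interval 0.80 to 1.85), at rank 24 of all genes by p (adjusted p = 0.177, edgeR). Without control replicate 1 it was 1.11 (adjusted p = 0.00161). JDP2-AS1, a noncoding gene on the opposite strand that shares 0.4% of the exon length of JDP2, went from 0.450 ± 0.142 to 1.5 ± 0.296 CPM (adjusted p = 0.394, edgeR).

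The 2 feedback genes differed in how evenly their libraries were placed. TRIB3 encodes a pseudokinase that is induced by ATF4 and CHOP and restrains them, and TRIB3 (ENSG00000101255.6, chromosome 20, 343479 to 378203, plus strand) had 45.8, 78.0 and 79.6 CPM in the controls and 128, 98.6 and 134 CPM with minocycline. The groups did not overlap. The log2 fold change was 0.83 with a 95% interval of 0.34 to 1.32 (adjusted p = 0.820), and 0.61 without control replicate 1 (adjusted p = 0.00913, edgeR). Its relatives TRIB1 and TRIB2 had log2 fold changes of -0.02 ± 0.15 and -0.05 ± 0.12 (SE).

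NUPR1 (ENSG00000176046.7, chromosome 16, 28544029 to 28550329, minus strand) encodes a small, largely unstructured nuclear protein of the stress response. It varied more between replicates than any other member, with 6.20, 17.5 and 22.2 CPM in the controls and 27.2, 17.3 and 38.9 CPM with minocycline. Minocycline replicate 2 lay below control replicates 2 and 3, so the groups overlapped. The log2 fold change of 0.86 had a 95% interval of -0.09 to 1.82 (adjusted p = 0.820), and it was 0.48 without control replicate 1 (adjusted p = 0.170, edgeR). NUPR2 had 0 counts in all 6 libraries.

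Read as a list, 0 of the 10 members passed an adjusted p under 0.05 in either direction in edgeR's test, where 0.0522% of all genes passed, each of them higher. The fitted level was higher for 8 members and lower for 2, where 52.1% of all genes were higher. At an unadjusted p under 0.05, 5 members were higher (CEBPG, JDP2, ATF4, TRIB3 and CEBPB) and ATF5 was lower, against 2.72% and 1.97% of all genes. The same 5 had treated libraries that all lay above the controls, an arrangement found in 5.74% of all genes, and CEBPA had the reverse, found in 3.56%. The median log2 fold change was 0.69 over the members and 0.01 over all genes tested.

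The calls depended on how variation between libraries was handled. With 1 surrogate variable, a hidden factor estimated from the counts and added to the model, 7 members passed as higher, where 0.482% of all genes did. They were ATF4 (log2 fold change 0.98), TRIB3 (1.15), CEBPB (0.89), CEBPG (0.72), JDP2 (1.61), NUPR1 (1.65) and DDIT3 (0.88), with adjusted p from 1.71e-05 to 0.00518. That variable set control replicate 1 (0.48) and minocycline replicate 2 (0.42) against control replicates 2 and 3 (-0.40 and -0.63), the same libraries that the first principal component set apart. ATF3, ATF5 and CEBPA did not pass in it. With DESeq2, 2 members passed, CEBPG (adjusted p = 5.61e-05) and JDP2 (adjusted p = 0.000168), where 0.279% of all genes passed as higher. With no filter on low counts ATF4, CEBPG, TRIB3, NUPR1 and JDP2 passed (0.224% of genes), with the counts corrected for exon length and GC share ATF4 and CEBPG (0.145%), and with that correction and the replicate as a block ATF4, CEBPB, CEBPG, TRIB3 and JDP2 (0.192%). No member passed with RLE factors, scaling by library size alone, voom in limma, at least 10 counts in every library, or the replicate block alone. In these settings 0.0464% to 0.0755% of all genes passed, and a list of 10 is too short for 0 to be read against such shares. CEBPG passed most often, in 6 of 16 alternatives. Over these 16 the adjusted p ran from 5.61e-05 to 0.815 for CEBPG and from 3.14e-07 to 0.935 for JDP2. For ATF4 it ran from 2.80e-05 to 1.00. Minocycline replicate 2 lay beside control replicate 1 on the first principal component. Without it the log2 fold change was 0.86 for ATF4, 0.61 for DDIT3 and 1.11 for NUPR1, and 0.76 for CEBPG, which hardly moved. In that setting 0 members passed, where 0.0454% of all genes did.

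**Figure D3:**
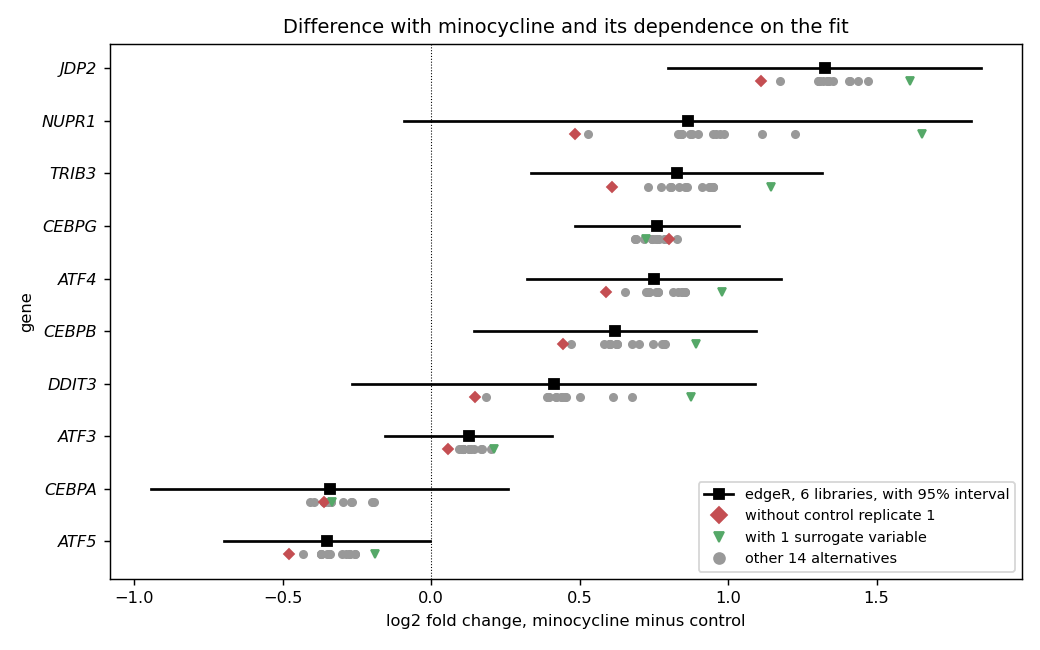
Log2 fold change of each member (minocycline minus control) from edgeR with its 95% interval in black, and below it the values from 16 alternatives, with the omission of control replicate 1 (red) and the surrogate variable (green) marked. CEBPG has the narrowest range of the members that are higher with groups apart, JDP2 runs from 1.11 to 1.61, NUPR1 from 0.48 to 1.65, and DDIT3 from 0.15 to 0.88.

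The members fell into patterns across the 6 libraries that treatment alone did not set. ATF4, TRIB3, CEBPB, NUPR1 and DDIT3 shared a profile with control replicate 1 lowest and minocycline replicate 3 highest, and within the treated group minocycline replicate 2 was the lowest library for each of them. JDP2 and ATF3 were alike in these lowest libraries, but minocycline replicate 1 was their highest. The correlation of ATF4 with TRIB3 over the 6 libraries was r = 0.99, and that of DDIT3 with NUPR1 was 0.98. ATF4 had an r of 0.97 with JDP2 and 0.90 with ATF3, both above its 0.84 with DDIT3. These values are descriptions over 6 libraries that mix both groups. CEBPG did not follow that profile: control replicate 3 was its lowest library, and its r with DDIT3 was 0.37. ATF5 had an r of -0.30 with ATF4 and of -0.76 with CEBPG.

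The same contrast appeared within batches. The log2 difference between the minocycline and control library of batches 1, 2 and 3 was 0.61, 0.72 and 0.96 for CEBPG. It was 2.13, 0.92 and 1.01 for JDP2 and 1.19, 0.39 and 0.71 for ATF4. For NUPR1 it was 2.13, -0.02 and 0.81, and for DDIT3 1.18, -0.18 and 0.34, so that batch 1, which holds control replicate 1, carried most of the mean difference of both genes.

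**Figure D4:**
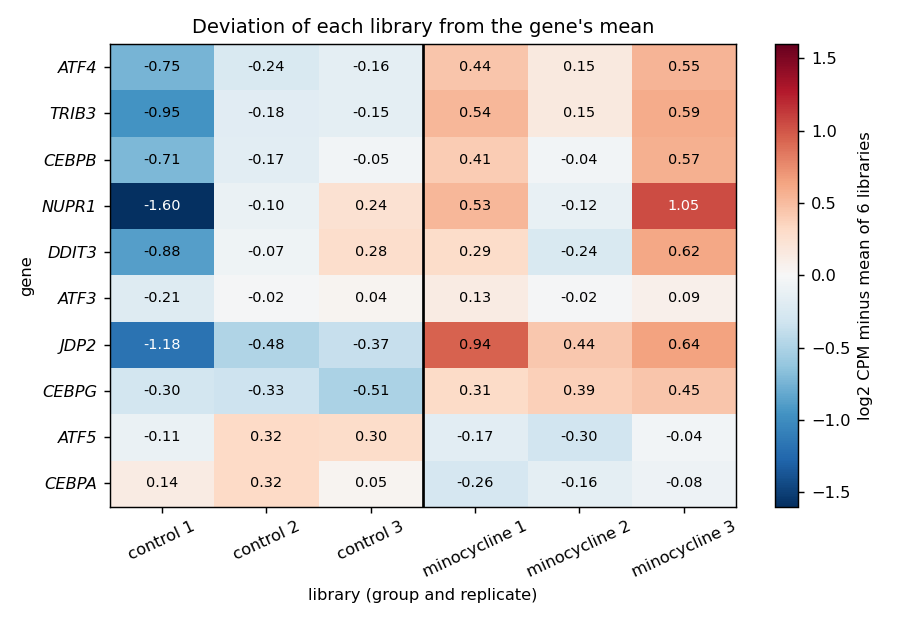
Deviation of each library from the gene's mean over the 6 libraries, on the log2 CPM scale (rows are genes, columns are libraries, red is above and blue below the mean). Control replicate 1 is the lowest library for 7 of the 10 genes, including NUPR1 (-1.597) and JDP2 (-1.18), while CEBPG splits evenly by treatment.

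Ratios of members within a library do not depend on how libraries are scaled to each other, and 5 such ratios of partners or paralogs were compared. The ratio of ATF5 to ATF4 was lower in every treated library. On the log2 scale of counts it was -3.45, -3.52 and -3.63 in the controls and -4.70, -4.54 and -4.67 with minocycline, a difference of -1.11 between the groups, whose SDs were 0.09 and 0.08. Control replicate 1 was not set apart in this ratio. The difference was -1.25, -1.02 and -1.05 within the 3 batches. The log2 ratio of JDP2 to ATF3 differed by 1.22, from -4.43 ± 0.31 to -3.20 ± 0.19 (SD, n = 3 per group). The two-sided exact permutation p was 0.1 for both ratios, the smallest that 3 against 3 libraries allow, and 0.25 after adjustment over the 5 ratios.

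The log2 ratio of TRIB3 to ATF4 differed by 0.09 between the groups (exact permutation p = 0.5), and by 0.02 without control replicate 1. DDIT3 relative to ATF4 was lower by a mean of 0.32 with minocycline, with overlapping groups (exact permutation p = 0.2). That difference ran from -0.46 without control replicate 1 to -0.18 without control replicate 3, and was -0.20 without minocycline replicate 2. CEBPG relative to CEBPB differed by 0.14 (exact permutation p = 0.5), and its control values alone ran from 0.30 to 1.18. Without control replicate 3 or minocycline replicate 2 it was -0.06 or -0.04, and without control replicate 1 it was 0.38. With these group sizes a p of 0.5 does not show that a ratio was the same.

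**Figure D5:**
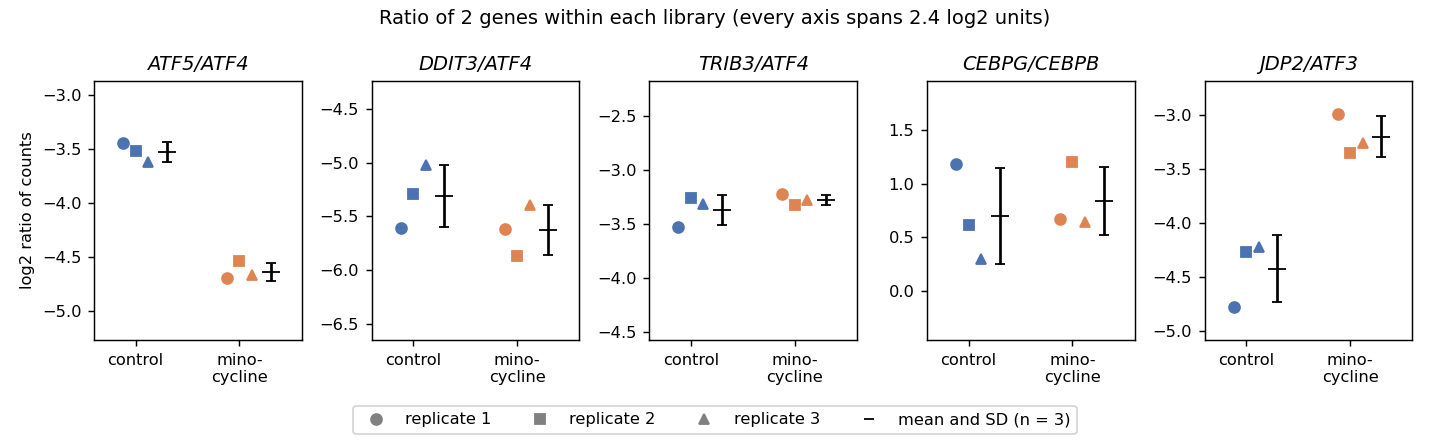
Log2 ratio of the counts of 2 members in each library, control in blue and minocycline in orange, with mean ± SD in black, on axes of equal span. The groups are apart for ATF5/ATF4 and JDP2/ATF3 and overlap for DDIT3/ATF4, TRIB3/ATF4 and CEBPG/CEBPB.

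Levels of different genes were compared per length, as CPM per kilobase of annotated exons. In the controls ATF4 stood at 265 ± 54.7 and ATF3 at 51.1 ± 4.53 (SD, n = 3), with no overlap between them or with any other member. A middle group followed, with CEBPB at 21.0 ± 4.81, TRIB3 at 20.6 ± 5.80, ATF5 at 20.5 ± 3.27, CEBPG at 15.2 ± 1.19 and DDIT3 at 13.9 ± 5.21, whose neighbours in that order overlapped except for ATF5 and CEBPG, where every ATF5 value was the higher. NUPR1 (2.78 ± 1.49) and JDP2 (1.56 ± 0.43) overlapped each other, and CEBPA was lowest (0.685 ± 0.066).

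With minocycline the extremes of this order were the same. ATF4 reached 445 ± 61.0, while in the middle group TRIB3 (36.5 ± 5.76) and CEBPG (25.8 ± 1.21) then lay above ATF5 (16.1 ± 1.48) in every library. In the controls TRIB3 had overlapped ATF5 and CEBPG had lain below it. With the longest annotated transcript as the length ATF5 stood next after ATF3 in the controls, at 29.6, so the order depends on the gene models. These may differ from those counted. NUPR1 was divided by 5508 annotated exon bases, or 5291 for its longest transcript, and a shorter model would place it higher. Whether a shorter model was counted is not given.

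The genes whose profile was most like that of a member were found by Pearson's correlation of log2 CPM over the 6 libraries, among 11556 other genes with a mean of at least 5 CPM. For ATF4 they were TRIB3 (r = 0.99), TMEM45A (0.99), PCK2, the mitochondrial phosphoenolpyruvate carboxykinase (0.99), PHGDH, which opens serine synthesis (0.99), and AP1G2 (0.98). For TRIB3 they were ATF4, TK2, AP1G2, HOXB9 and PHGDH, each with an r of 0.99. PCK2 had a log2 fold change of 1.53 (adjusted p = 0.120, edgeR) and AP1G2 had 0.10, so that a like profile over these libraries did not mean a like response.

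For DDIT3 the closest profiles were those of CAPS (r = 1.00), LGALS3BP (0.99), ATG10 (0.99), THBS3 (0.99) and EME1 (0.98), with log2 fold changes of 0.11 to 0.24. For ATF5 they were UBE2L3, MRPS12, ANKRD9, DUS1L and PPP2R2D, each with an r of 1.00 after rounding and log2 fold changes of -0.42 to -0.19. None of these genes passed the threshold.

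The wider network around ATF4 was read from lists that leave the members out. Of 42 listed ATF4 targets, 41 had a higher fitted level and 8 passed as higher, where 0.0522% of all genes did. The 8 included the stanniocalcin gene STC2 (log2 fold change 1.96), the cystine transporter gene SLC7A11 (2.37), the serine synthesis gene PSAT1 (1.30) and the asparagine synthetase gene ASNS (1.59). The median of the targets was 0.82 on the log2 scale, and the single lower one was PPP1R15A. Several of these genes were already known to be high in these libraries when the list was written. Without minocycline replicate 1 or minocycline replicate 3 the number that passed was 1, without control replicate 2 it was 3, and without control replicate 1 it was 33. Of all genes 0.00566%, 0.00565%, 0.0225% and 9.52% passed as higher in these 4 settings.

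Lists of genes upstream of ATF4 and of other bZIP genes are too short for a count of genes that passed to be read against the 0.0522% of all genes. Of 18 genes of eIF2 signalling, all tested, 10 had a higher and 8 a lower fitted level, where 52.1% of all genes were higher. The median was 0.04 and 0 passed in edgeR's test. At an unadjusted p under 0.05, 2 were higher and 0 lower, against 2.72% and 1.97% of all genes. In 4 of the 18 (EIF2S2, EIF2S3, DELE1 and IMPACT) all treated libraries lay above all controls, as in 5.74% of all genes, and in EIF2B3 they lay below, as in 3.56%. The smallest p in this list belonged to EIF2S2 and EIF2S3, subunits of eIF2 (0.38 ± 0.14 and 0.30 ± 0.12, SE), to the heme-regulated kinase gene EIF2AK1 (-0.24 ± 0.13) and to EIF2B3, a subunit of the exchange factor for eIF2 (-0.21 ± 0.13). Of 45 other bZIP genes 41 were tested, and 21 had a higher and 20 a lower fitted level (median 0.01). In edgeR's test 0 passed. At an unadjusted p under 0.05, 2 were higher and 2 lower, against the same 2.72% and 1.97% of all genes. The treated libraries lay above all controls for 4 of the 41 and below for 3, against 5.74% and 3.56% of all genes. XBP1 and ATF6, regulators of the unfolded protein response, had 0.55 ± 0.13 and 0.44 ± 0.17 (SE), and CEBPD and MAFA had -0.53 ± 0.22 and -0.48 ± 0.20.

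Of 7 genes that CHOP is known to induce, 4 had a higher fitted level, where 52.1% of all genes did, and 3 a lower one. CHAC1, which degrades glutathione and is also an ATF4 target, was the 1 that passed, where 0.0522% of all genes passed as higher, at 2.24 ± 0.24 (SE; adjusted p = 0.0127, edgeR). TNFRSF10B, a death receptor, had 0.22 ± 0.14, ERO1A, an oxidase of the endoplasmic reticulum, 0.39 ± 0.25, and PPP1R15A, which directs the phosphatase of eIF2, -0.22 ± 0.17. The median of this list was 0.16.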

How the data were processed

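The authors deposited raw whole-number counts per gene for the 6 total RNA libraries in a single table, with no normalization and with replicates not pooled. Per the submitters' processing notes the build was hg19. For the aligner, the counting program, the annotation and the use of strand, the entry is "not given in the sources used here". Groups came from the sample titles. The members and lists were chosen with earlier results of these data known.

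Genes were filtered with filterByExpr, scaled with TMM factors and tested with edgeR 4.0.16 (glmQLFit, glmQLFTest; R 4.3.3), with treatment as the single term and Benjamini-Hochberg adjustment over 17225 genes. An adjusted p under 0.05 counted as passed. The fit was tested on simulated counts with known changes, drawn independently for each gene and library. No variation shared between genes was simulated, so the fit was not tested under a pattern like the first principal component. CPM values are TMM-scaled, 95% intervals and standard errors (the log2 fold change divided by the square root of F) come from the fit, and depth limits CEBPA most. Correlations used log2 CPM after adding 0.5 counts. For the 5 ratios an exact permutation test (two-sided) was used. The p-values of edgeR set a group difference against the spread between these libraries, estimated with information from all genes. Those of the ratios come from exchanging the group labels. No library was a repeat: chi-square divided by its degrees of freedom was 5.80 to 63.6 for pairs from 1 group.

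Symbols came from a table of gene names, and positions, exon lengths and GC content from GENCODE v44 mapped to GRCh37, whose gene models may differ from those counted. For each member every library is given. Similar genes are the 5 with the highest correlation, and the 4 with the smallest p are named per list.

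The labels give the replicate number as the batch, which pairs the libraries. Deviations from the group means correlated at -0.04, -0.26 and 0.29 within the 3 pairs, and at 0.47 between control replicate 1 and minocycline replicate 2. Alternatives were DESeq2 1.42.0, voom in limma 3.58.1, RLE factors, scaling by library size, no filter, at least 10 counts in every library, the replicate block, a spline correction (4 degrees of freedom) for exon length and GC content with and without the block, 1 surrogate variable (sva 3.50.0) and each library left out.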

Additional observations from a re-analysis of the deposited data

How the results depend on the processing

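No member changed direction in any of 16 alternatives. The number of members that passed as higher was 0 with 6 libraries and no further term, where 0.0522% of all genes did. It was 2 with DESeq2 (0.279% of all genes) and 5 with no filter on low counts (0.224%). It was 2 with the length and GC correction (0.145%), and 5 with that correction and the replicate block (0.192%). With 1 surrogate variable it was 7 (0.482%). It was also 0 with RLE factors (0.0464%), scaling by library size (0.0755%), voom in limma (0.0639%) and at least 10 counts in every library (0.0708%). It ran from 0 to 4 with a library left out, and the number that passed as lower from 0 to 1. The 4 higher members (ATF4, CEBPG, TRIB3 and JDP2) and the lower one, ATF5, passed without control replicate 1 and no member passed with any other library left out. Without control replicate 1, 9.52% of all genes passed as higher and 8.34% as lower. With another library left out, 0.00565% to 0.0508% of all genes passed. With the replicate block alone, which pairs the libraries by batch, 0 members passed, 11 ATF4 targets passed as higher, and over all genes 13 passed, 1 of them as lower. Added to the length and GC correction, the block moved the members from 2 to 5. Without the block 8 targets passed, 23 with DESeq2, 26 with no filter, 15 and 18 with the length and GC correction without and with the block, and 34 with 1 surrogate variable. The count of targets ran from 1 to 33 with a library left out, and that of lower targets from 0 to 1. The cause was not tested. Over all genes 9 passed, and 50 with DESeq2, 94 with no filter, 26 and 35 with the length and GC correction without and with the block, and 91 with 1 surrogate variable. It was 3154 without control replicate 1, 4 without control replicate 2 and 1 without minocycline replicate 1 or 3. Library scaling moved the median log2 fold change of all genes from 0.0135 to -0.0043 (RLE) and 0.0836 (library size). The 5 ratio differences moved by less than the spread between replicates with any library left out. With 1 library of each group per batch, their mean within batches equals the difference between the groups by arithmetic. The block therefore could not move them and is no check on these ratios. Levels per kilobase moved beyond that spread with the longest transcript as length for ATF4 (342), ATF3 (97.1), ATF5 (29.6) and TRIB3 (28.8). Depth limits CEBPA, with 24 to 33 counts per library.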

Other observations

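Genes with the composite element were also compared as a set, as a description with no test. Of the 165 protein-coding genes that hold TGATGCAA within 500 bases of the canonical start, 116 (70.3%) had a higher fitted level with minocycline, against 6797 of 13443 genes without it. In 46 of the 165 (27.9%) all treated libraries lay above all controls, against 4.95% of the genes without it, and in 2 (1.21%) they lay below, against 3.63%. Of the genes past the threshold with a window, 4 held TGATGCAA (SLC7A11, PSAT1, CHAC1 and SLC6A9) and 4 did not. Among those without it, ASNS held a match to the looser form TGATGNAA, and STC2 and VEGFA held neither form. The other of these 4 was FUT1 (log2 fold change 1.88), for which the looser form is not reported. DDIT4, which also passed (1.81), had no window.

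Many of these genes stand on the lists described in the report, which were written with such results known. After all listed genes were removed, 139 with the element were left. They still included the aminoacyl-tRNA synthetase genes YARS1, IARS1 and TARS1, a family of which AARS1 and CARS1 are listed targets. The lists are short, so their removal does not set the rest apart from the ATF4 network. Of the 139, 90 (64.7%) had a higher fitted level and 25 (18%) had treated libraries above all controls. Their median log2 fold change was 0.07, against 0.00 for the genes without the element. None of the 139 passed. The 6 with the smallest p, chosen after their values were seen, were CBS, which joins serine to homocysteine (126 to 232 mean CPM, log2 fold change 0.88 ± 0.15, SE), ADM2, a peptide hormone gene (2.34 to 9.55 CPM, 2.03 ± 0.38), YARS1, the tyrosyl-tRNA synthetase gene (0.67 ± 0.13), SULT1E1, an estrogen sulfotransferase gene (0.757 to 2.27 CPM, 1.58 ± 0.32), RHBDD1, a rhomboid protease gene (0.69 ± 0.15), and BCAT1, a branched-chain aminotransferase gene (0.85 ± 0.18). Their adjusted p lay between 0.159 and 0.391 in edgeR's test.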
